A study of Mus musculus with 6 samples.

Results

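ATAC-seq peaks were described at 10 genes that encode the CD3 chains, the CD4 and CD8 coreceptors and the accessory receptors CD5, CD6 and CD2: Cd3e, Cd3d, Cd3g, Cd247, Cd4, Cd8a, Cd8b1, Cd5, Cd6 and Cd2. ATAC-seq marks open chromatin by where the Tn5 transposase can cut and tag DNA, and a peak is a site where such tags pile up. A peak was given to one of these genes when its midpoint lay in the gene body, or lay between genes with that gene as the nearest protein-coding one within 100 kb. By this rule 31 of 36182 peaks of the KO list and 33 of 38258 peaks of the WT list were given to the 10 genes.

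The study compared 2 groups of 3 mouse samples on the C57BL/6 background. KO samples carried Bcl11b f/f with Foxp3-IRES-YFP-Cre, and WT samples carried Bcl11b w/w with the same Foxp3-IRES-YFP-Cre, so YFP and Cre were present in both groups and Cre was driven by the Foxp3 gene. CD4+YFP+ cells were sorted from spleen and draining lymph nodes, which limits the data to cells that express Foxp3, the factor that defines regulatory T cells (Treg cells), and 100000 cells were lysed per sample. The labels give no age, and they do not say which part of Bcl11b is deleted. Per the labels there is 1 peak list per group, so the files used hold no value for a single sample, no difference below has a replicate check and no p-value is given. In cells measured in bulk, a site open in fewer cells and a site less open in each cell cannot be told apart.

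T cells recognise antigen through the T cell receptor, whose antigen-binding chains cannot signal by themselves. They are held together with the CD3 epsilon, delta and gamma chains and with the zeta chain encoded by Cd247, whose cytoplasmic tails are phosphorylated by the kinase Lck. CD4 and CD8 bind MHC class II and class I molecules and bring Lck to the receptor. CD5 and CD6 are related scavenger-receptor proteins that tune receptor signals, and CD2 is an adhesion receptor that binds CD48 in the mouse. Bcl11b encodes a zinc-finger transcription factor that T cells need to commit to and keep their lineage.

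The promoters of 6 of the 10 genes were found in the RefSeq table of GRCm38.p6, whose coordinates are those of mm10. The promoters of Cd4, Cd8b1, Cd6 and Cd2 were not matched. The 250 bases before the gene start are printed for 4 promoters because they show 3 different outcomes: a peak in both lists (Cd3g and Cd5), a peak in the WT list alone (Cd247) and no peak in either (Cd3d). Capitals mark bases under the peaks of both lists at Cd3g and Cd5, and bases under the WT peak at Cd247. The stretches are chr9:44980432-44980681 (minus strand) for Cd3g, chr19:10738975-10739224 (minus strand) for Cd5, chr1:165788431-165788680 (plus strand) for Cd247 and chr9:44981536-44981785 (plus strand) for Cd3d, each written 5′ to 3′.
Cd3g: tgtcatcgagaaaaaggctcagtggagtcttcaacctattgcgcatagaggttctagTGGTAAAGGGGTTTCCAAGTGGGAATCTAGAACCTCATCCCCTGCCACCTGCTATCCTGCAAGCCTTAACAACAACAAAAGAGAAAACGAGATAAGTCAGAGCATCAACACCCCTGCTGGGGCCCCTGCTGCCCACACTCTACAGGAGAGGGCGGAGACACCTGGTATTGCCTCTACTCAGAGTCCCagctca
Cd5: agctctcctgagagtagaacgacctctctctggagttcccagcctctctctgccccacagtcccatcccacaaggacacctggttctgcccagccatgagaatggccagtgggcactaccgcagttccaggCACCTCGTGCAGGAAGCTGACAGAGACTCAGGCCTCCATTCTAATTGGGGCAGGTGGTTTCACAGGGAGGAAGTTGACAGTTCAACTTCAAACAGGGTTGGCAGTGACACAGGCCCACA
Cd247: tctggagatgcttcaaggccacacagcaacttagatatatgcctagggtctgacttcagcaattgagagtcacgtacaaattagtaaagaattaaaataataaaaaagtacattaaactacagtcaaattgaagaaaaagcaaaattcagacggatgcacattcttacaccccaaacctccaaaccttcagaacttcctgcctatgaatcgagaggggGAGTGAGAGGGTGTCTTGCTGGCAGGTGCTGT
Cd3d: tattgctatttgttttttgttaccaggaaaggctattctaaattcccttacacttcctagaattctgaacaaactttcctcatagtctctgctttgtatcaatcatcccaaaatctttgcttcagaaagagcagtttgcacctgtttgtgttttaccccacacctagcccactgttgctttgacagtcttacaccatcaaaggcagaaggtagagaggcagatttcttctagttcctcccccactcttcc

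At Cd3g the whole KO peak (193 bases) and the whole WT peak (219 bases) lay before the gene start, with 187 bases in common. At Cd5 the stretch in common before the start was 119 bases. At Cd247 the KO list had no base in the 300-base window, which runs from 250 bases before the start through its first 50 bases, and the WT list covered 82, of which 32 lay before the start. A KO peak reached into the promoter window at 3 of the 6 genes (Cd3g, Cd5 and, by 1 base, Cd3e), a WT peak at 4 (the same genes and Cd247), and no peak at Cd3d or Cd8a. Over 17491 protein-coding genes with a window, 45.2% had a peak in either list. Of the windows with a WT peak, 7.32% had no KO peak, and at these genes the count was 1 of 4.

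Short motifs were searched on both strands in the 300-base windows. An E box (CAGCTG or CACCTG) was found at 6 of the 6 genes and in 31.1% of all windows, an ETS motif (CAGGAAG or ACTTCC, which can overlap each other) at 4 of 6 and in 31.9%, and a RUNX motif (TGTGGT or TGCGGT) at 2 of 6 and in 21.7%. A GATA motif (AGATAA) was found at 1 of 6 and in 9.96% of windows, and a TCF motif (TTCAAAG or ATCAAAG) at 1 of 6 and in 7.83%. Under the peaks of both lists, the Cd3g promoter held CACCTG 148 and 35 bases before the start and AGATAA 104 bases before it. Also under the peaks of both lists, the Cd5 promoter held CAGGAAG 110 bases before the start, with CACCTG on the other strand at 69 and ACTTCC on the other strand at 51 bases. Under the WT-only peak of Cd247 lay CACCTG on the other strand 10 bases before the start and overlapping ETS matches that begin 21 and 22 bases after it. The Cd3d promoter, with no peak, held ACTTCC 199, CACCTG 112 and ATCAAAG 55 bases before the start. A match describes the letters of the window and is not a measured binding site.

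A peak is called KO-only or WT-only here when it overlapped no peak of the other list by even 1 bp, and shared otherwise. Most peaks at the 10 genes were shared. Of the KO peaks 9 of 31 were KO-only (29.0%, exact 95% interval 14.2 to 48.0%), against 24.8% of all KO peaks within reach of a gene. Of the WT peaks 11 of 33 were WT-only (33.3%, 18.0 to 51.8%), against 28.4% of all WT peaks within reach of a gene. Both shares lay near the background of the lists, and their intervals include it. KO-only peaks made up 45.0% (23.1 to 68.5%) of the 20 peaks found in one list alone, against 45.4% over all such peaks within reach of a gene. These exact Clopper-Pearson intervals cover counting error only. The genotype-specific peaks fell on 4 genes, Cd247, Cd6, Cd2 and Cd8b1. The other genes had shared peaks alone (5 genes, with 1 to 6 peaks each per list) or no peak (Cd8a). The shares of all genes with a genotype-specific peak and with shared peaks alone were not computed. The 4 and the 5 genes thus have no background. Cd247 and Cd6 are also the longest of the 10 genes (91.2 and 40.7 kb). More KO-only peaks were found at 1 gene, more WT-only peaks at 3 and equal numbers at 6. Over all 21896 protein-coding genes these counts were 2957, 3927 and 15012.

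**Figure D1:**
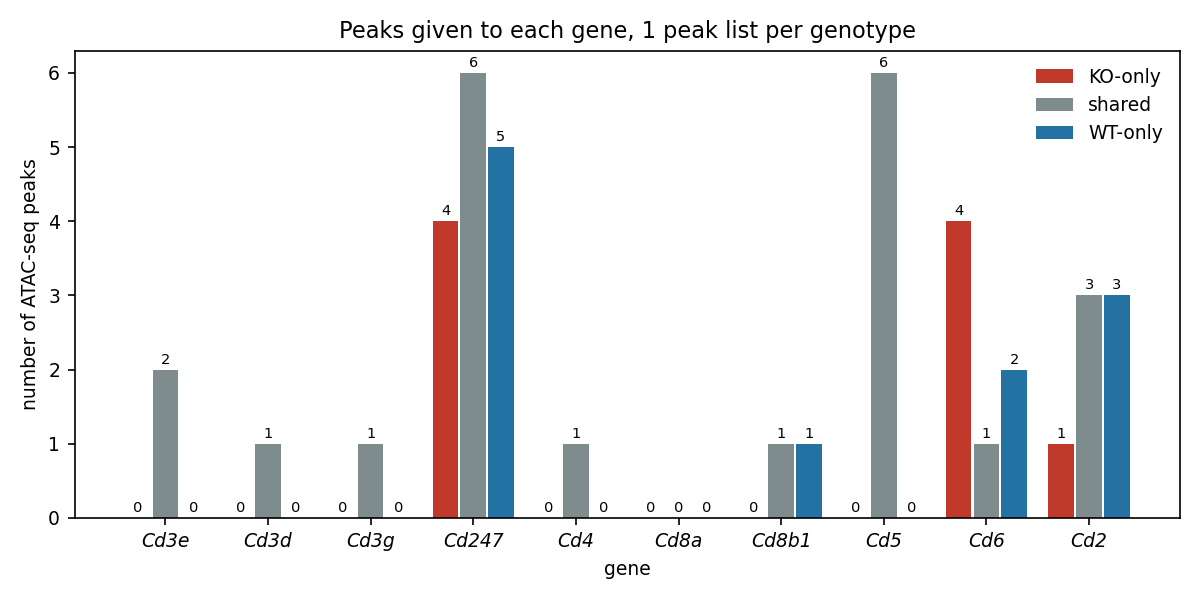
Number of KO-only, shared and WT-only peaks (y axis) given to each of the 10 genes (x axis), from 1 peak list per genotype, shared peaks being equal in number in both lists. Cd247, Cd6, Cd2 and Cd8b1 held the 9 KO-only and 11 WT-only peaks, and the peaks of Cd3e, Cd3d, Cd3g, Cd4 and Cd5 were all shared.

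A list's row order is also used below. Peaks carry no height, but their numbered names run with the row order, so the place in the list (as a percentage of its rows, with 0% at the top) was taken as a rank of peak strength. The labels do not state this, so the reading is an inference. Peak numbers are missing from both lists (29.4% of KO and 34.8% of WT numbers), so a site with no peak may have had one that was removed.

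The 3 CD3 chain genes that lie next to each other on chromosome 9 had 4 shared peaks and no genotype-specific one. A WT-only peak 2.71 kb below the lower end of Cd3g, at 89.8% of the WT list, was given to Ube4a. Cd3g (gamma chain, chr9:44969572-44980431) had its peak just outside its upper end, which is its start, at 53.3% of the KO list and 38.7% of the WT list. Cd3d (delta chain, chr9:44981769-44987052) lies 1.34 kb above Cd3g and starts at the side that faces it. Its peak, chr9:44986543-44986735 in the KO list and chr9:44986579-44986797 in the WT list, lay at the far end of the gene, with its midpoint 4853 bases (KO) and 4902 bases (WT) after the start, and stood at 9.62% of the KO list and 15.6% of the WT list. In both lists it was the earliest of the 4, ahead of the peak at the start of Cd3g.

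Cd3e (epsilon chain, chr9:44998735-45009663) had a shared peak at each end. The one at the start side (KO chr9:45009370-45009562, WT chr9:45009369-45009587) had its midpoint 145 bases downstream in the KO list and 133 bases downstream in the WT list, counted from the gene start of the promoter table, so that 1 base of the KO peak and 26 bases of the WT peak fell in the promoter window. Its places were nearly equal, 22.2% in the KO list and 20.6% in the WT list. The peak 0.396 kb (KO) and 0.424 kb (WT) below the other end stood at 70.7% of the KO list and 95.2% of the WT list, in the last 5% of the WT list. When the WT list was shortened by row order to the length of the KO list, this WT peak dropped out and its KO partner became KO-only.

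**Figure D2:**
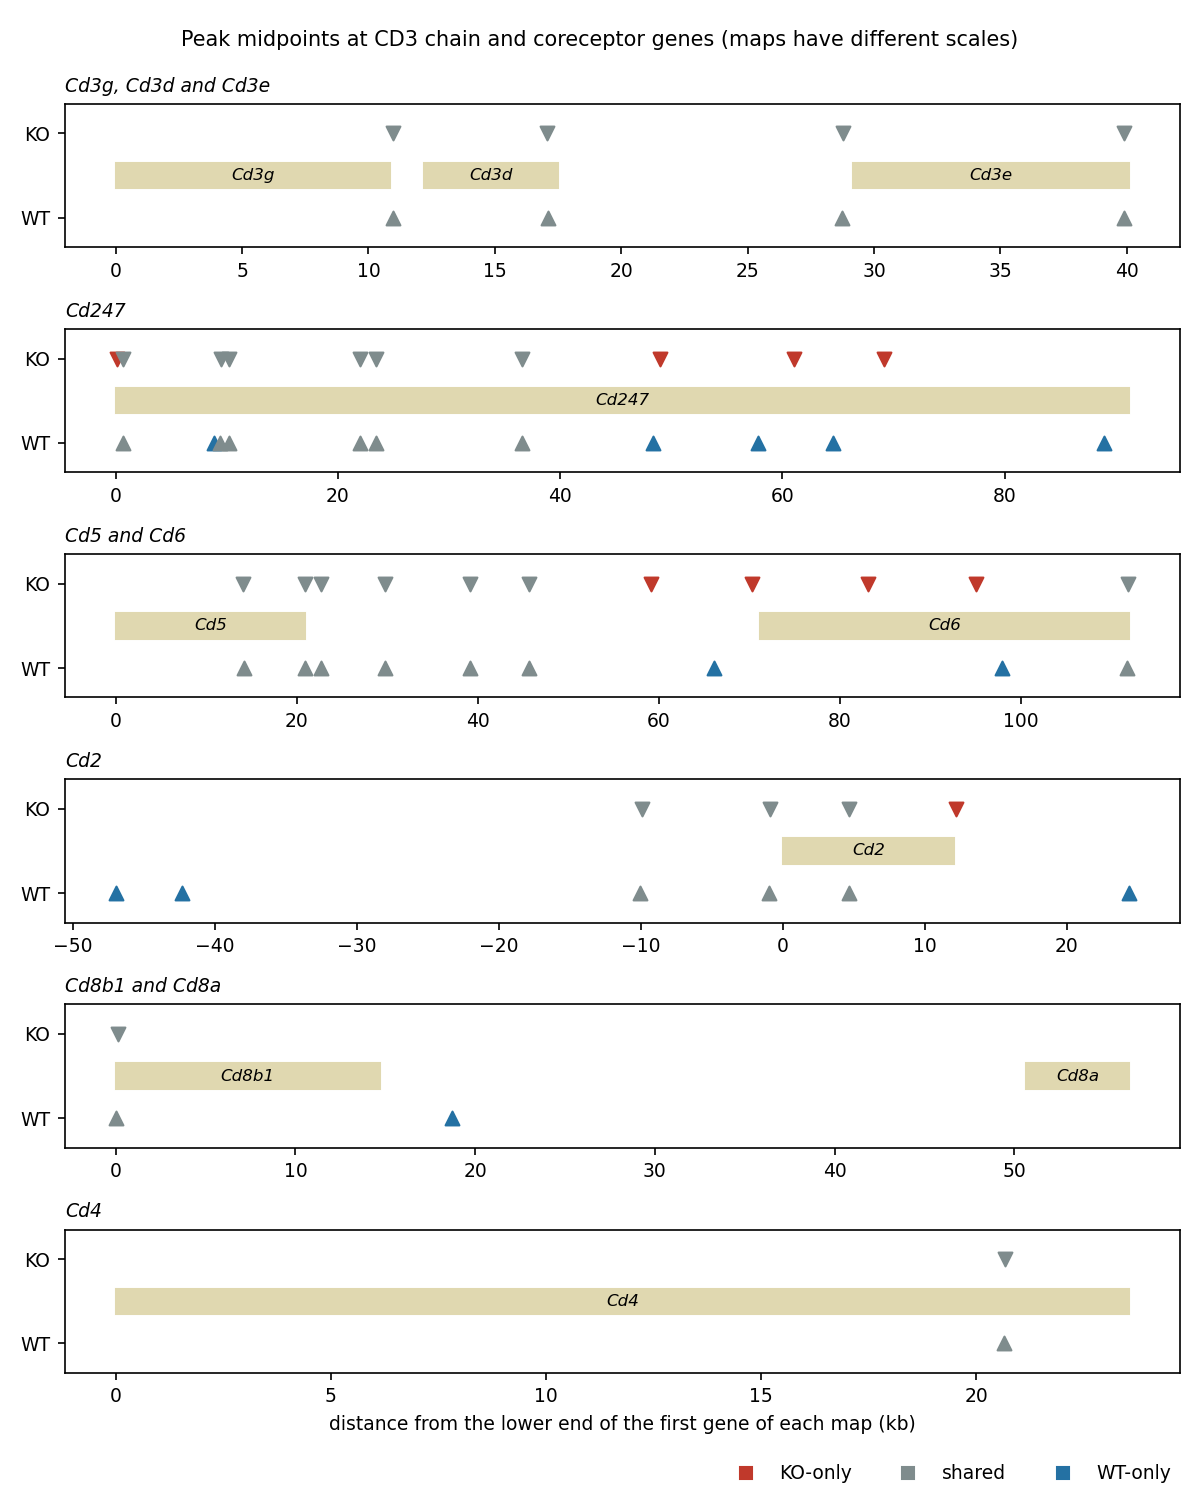
Midpoints of KO peaks (upper row, pointing down) and WT peaks (lower row, pointing up) along 6 loci, with gene bodies as bars and the distance in kb from the lower end of the first gene on the x axis. All marks at the CD3 locus and at Cd5 are shared, the last 7 marks of Cd247 are genotype-specific, and Cd8a has none.

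Cd247, which encodes the zeta chain (chr1:165779952-165871153, 91.2 kb), had the most peaks of the 10 genes and is also the longest of them. Inside its body lay 1.10 KO and 1.21 WT peaks per 10 kb. Among the 10 genes only Cd3d had more, 1.89 of each, from 1 peak per list in 5.28 kb. There were 4 KO-only, 5 WT-only and 6 shared ones, all inside the annotated body. In the 36.7 kb up to the end of its last shared peak lay all 6 shared peaks with 1 KO-only and 1 WT-only peak. In the remaining 54.5 kb lay 3 KO-only peaks, 4 WT-only peaks and 0 shared ones. The gene was divided at its last shared peak after the positions were seen, so the 0 is fixed by the division.

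The WT-only peak on the left of Cd247 was the promoter peak, chr1:165788649-165788867, at 37.4% of the WT list. Its midpoint lay 77 bases after the gene start of the promoter table and 8.81 kb inside the annotated body. The nearest KO peak began 450 bp beyond it (chr1:165789318-165789510, at 38.8% of the KO list) and was shared with a WT peak that stood at 31.4%. The KO-only peak on the left (chr1:165780005-165780197, at 62.5% of the KO list) lay at the lower end of the gene body. On this plus-strand gene, that end is the start of the annotated body. The peak was 271 bp from a shared peak 0.626 kb inside that end, which stood at 48.6% of KO and 38.9% of WT. Both lists thus had a peak at the start of the annotated body.

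On the right of Cd247, the 7 peaks alternated between the lists, beginning and ending with a WT-only one. A KO-only peak at chr1:165828828-165829020 (73.0% of the KO list) lay 428 bp from a WT-only peak at chr1:165828181-165828399 (56.0% of the WT list). Further on stood KO-only peaks at chr1:165840869-165841061 (26.1%) and chr1:165849002-165849194 (17.2%), and WT-only peaks at chr1:165837645-165837863 (38.1%) and chr1:165844390-165844608 (18.6%), with 3.01 to 4.39 kb to the nearest peak of the other list. These 4 peaks lay within the noncoding gene Gm32999, and the KO-only peak at 17.2% of its list reached into the promoter window of Gm32999. The last WT-only peak (chr1:165868776-165868994, at 80.8%) lay in a stretch shared with the gene Pou2f1, 19.6 kb from the nearest KO peak. With a gap of up to 500 bp allowed, the promoter peak counted as shared, and Cd247 had 2 KO-only and 3 WT-only peaks. When gene ends rather than gene bodies decided the nearest gene, it had 1 and 3.

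Of the coreceptor genes, Cd4 (chr6:124864693-124888247) had 1 peak, which was shared. It lay inside the gene, 2.89 kb below its upper end in the KO list (chr6:124885258-124885450) and 2.90 kb below it in the WT list (chr6:124885236-124885454). It stood at 36.4% of the KO list and 30.6% of the WT list, and the 2 intervals overlapped over 193 bp, the whole width of the KO peak. Neither gene end of Cd4 had a peak that was given to it. Just below its lower end, a KO-only peak (chr6:124864140-124864332, at 68.8%) lay 0.457 kb away and a WT-only peak (chr6:124859720-124859938, at 50.6%) 4.86 kb away, and both were given to Gpr162.

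Cd8a, the CD8 alpha chain gene (chr6:71373427-71379171), had no peak in either list. The share of all protein-coding genes without a peak was 33.0%. The nearest KO peak to Cd8a was 50.5 kb away and the nearest WT peak, which stood at 99.4% of its list, 20.2 kb away. Cd8b1, the CD8 beta chain gene (chr6:71322788-71337492), had a shared peak at its lower end (KO chr6:71322808-71323000, WT chr6:71322713-71322931), late in both lists at 68.8% of KO and 63.6% of WT. A WT-only peak (chr6:71341387-71341605) lay 4.0 kb above Cd8b1, in the 35.9 kb between it and Cd8a, at 88.3% of the WT list and 18.4 kb from the nearest KO peak.

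Cd5 and Cd6, neighbours on chromosome 19 that encode related receptors, differed in their peaks. Cd5 (chr19:10718107-10739026) was given 6 shared peaks and no genotype-specific one. KO-only peaks 3.34 and 8.06 kb below its lower end were given to Vps37c, and Cd5 had 2 KO-only and 0 WT-only peaks when every gene within 10 kb was counted. At Cd6 (chr19:10789339-10830062) 4 peaks were KO-only, 2 were WT-only and 1 was shared.

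The peaks of Cd5 stood between 7.20% and 37.9% in the KO list and between 9.03% and 53.5% in the WT list. The peak at its start (KO chr19:10738901-10739093, WT chr19:10738949-10739167) stood at 22.6% of KO and 21.8% of WT. The 4 peaks between Cd5 and Cd6 that were given to Cd5 lay 1.77 to 24.7 kb above its upper end in the KO list. The earliest in the KO list, chr19:10747760-10747952, stood at 7.20% there, against 20.4% for its WT partner. The peak farthest from Cd5 (chr19:10763669-10763861, at 10.01% of KO and 9.03% of WT) was 24.7 kb from Cd5 and 25.6 kb from Cd6, so its assignment to Cd5 rests on a small difference. When noncoding genes were allowed as nearest genes, A430093F15Rik took all 4, and Cd5 kept 2 shared peaks. The peak inside Cd5 (chr19:10732119-10732311) was later in the KO list, at 34.0%, than its partner in the WT list, at 15.4%.

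The shared peak of Cd6 lay at its upper end (KO chr19:10829835-10830027, at 50.4%; WT chr19:10829703-10829921, at 44.7%), where the intervals overlapped by 87 bp. Its KO-only peaks stood at 52.6% (chr19:10788273-10788465, 0.970 kb below the lower end), 69.3% (chr19:10801117-10801309), 73.9% (chr19:10813105-10813297) and 86.7% (chr19:10777200-10777392) of the KO list. Its WT-only peaks stood at 42.3% (chr19:10784079-10784297) and 44.4% (chr19:10815873-10816091) of the WT list. All KO-only peaks of Cd6 thus lay in the later part of their list and both WT-only peaks in the earlier part of theirs. In the first 50% of each list lay 0 of the KO-only and 2 of the WT-only peaks, so the direction of the difference at Cd6 turned. The nearest peaks of the other list were 2.58 to 14.6 kb away. With sharing defined as an overlap of at least 50% of the shorter peak, the peak at the upper end was no longer shared and Cd6 then held 5 KO-only peaks, 3 WT-only peaks and 0 shared ones.

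At Cd2 (chr3:101275908-101287939) 1 peak was KO-only, 3 were WT-only and 3 were shared. The KO-only peak, chr3:101287996-101288188, had its midpoint 0.153 kb beyond the upper end of the gene. It stood at 7.37% of the KO list, earlier than the other 8 KO-only peaks of the 10 genes. The nearest WT peak was 7.35 kb away. In the first 10% of the KO list, 4.06% of all peaks were KO-only, and of the 4 peaks of these genes found there (1 each at Cd2, Cd3d, Cd247 and Cd5), 1 was. Under each of the 8 other settings of overlap, list length and assignment that were run, Cd2 had at least this 1 KO-only peak.

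The WT-only peaks of Cd2 lay farther away, 12.3 kb above the gene (chr3:101300173-101300391, at 23.0% of the WT list) and 42.3 and 47.0 kb below it (at 46.0% and 79.9%). With peaks limited to 10 kb from the gene, Cd2 kept the KO-only peak and had 0 WT-only peaks, so the direction of its difference turned. The shared peak inside Cd2 stood at 16.7% of the KO list (chr3:101280450-101280642) and 4.99% of the WT list (chr3:101280425-101280643), and the one 0.899 kb below its lower end in the KO list at 14.7% of KO and 13.1% of WT. The third, 9.91 kb below the gene in the KO list, overlapped its WT partner by 23 bp.

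**Figure D3:**
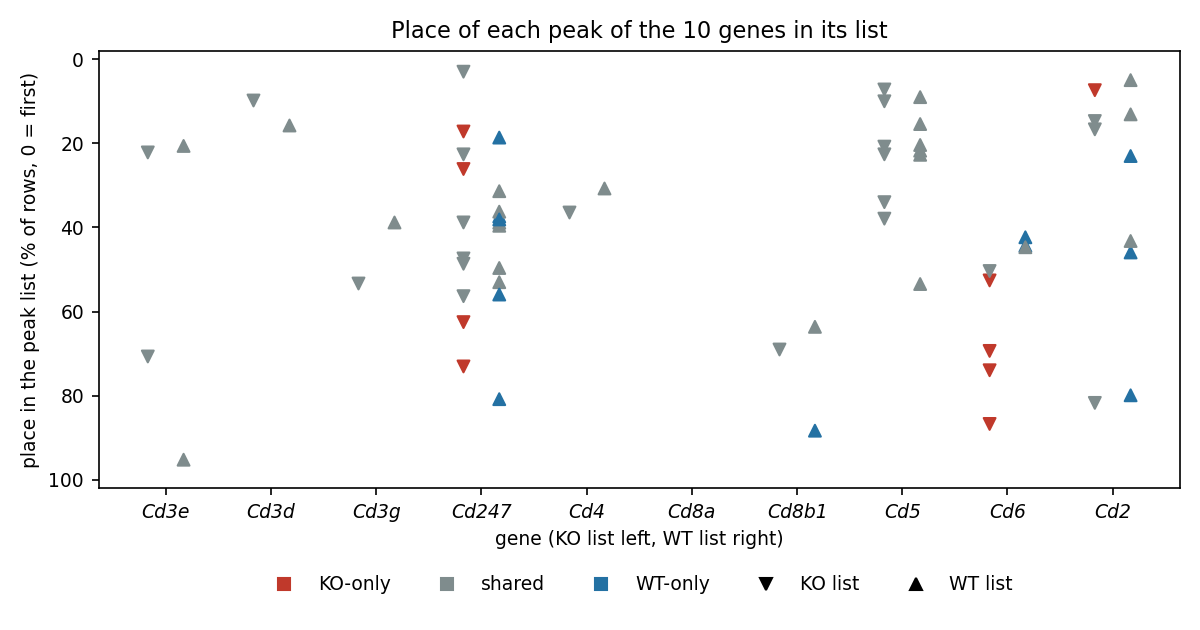
Place of each peak in its list (y axis, % of rows, 0 at the top) for each gene (x axis), with KO peaks to the left and WT peaks to the right, coloured by class. The KO-only peaks of Cd6 lie between 52.6% and 86.7%, and the KO-only peak of Cd2 stands at 7.37%.

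WT-only peaks at these genes stood earlier in their list than WT-only peaks do in general. Their median place was 44.4% of the WT list, against 76.1% for all WT-only peaks within reach of a gene. In the first 50% of the WT list lay 7 of 11 (63.6%, exact 95% interval 30.8 to 89.1%), against 18.5% of all such peaks. For KO-only peaks the median place was 62.5% of the KO list, against 71.3% for all KO-only peaks within reach of a gene, and 3 of 9 (33.3%, 7.49 to 70.1%) lay in the first 50%, against 26.8%. Shared peaks of these genes also stood earlier, with medians of 35.2% (KO list) and 33.8% (WT list), against 41.3% and 37.5% within reach of a gene. Over peaks of all classes the medians were 37.9% and 38.7%, against 48.9% in each list. An early place was thus not confined to the WT-only peaks. The early WT-only peaks were 3 at Cd247 and 2 each at Cd6 and Cd2. Those of Cd2 depend on the assignment rule, since Cd2 kept 0 WT-only peaks within 10 kb and with the nearest gene of any type. With the nearest gene of any type, Cd6 kept 1 WT-only peak. Several of these peaks belong to the same gene, so they are not independent of each other.

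By position, 3 of the 9 KO-only peaks (33.3%) lay within 1 kb of a gene end, against 18.3% of all KO-only peaks within reach of a gene. They were the peaks at the upper end of Cd2 and at the lower ends of Cd247 and Cd6. Of the 11 WT-only peaks 0 did so, against 14.4% of all, and the midpoint of the promoter peak of Cd247 lay 8.81 kb inside its annotated body. Of the 22 shared peaks 9 did (40.9%), against 36.3%. The counts for the 9 KO-only and 11 WT-only peaks have no interval and are not read as a difference between the lists. The median distance to the nearest peak of the other list was 3.98 kb for KO-only and 3.98 kb for WT-only peaks of these genes, against 3.97 kb and 6.79 kb over all within reach of a gene.

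Shared peaks differed in place between the lists about as much at these genes as elsewhere. Over the 22 pairs the median difference in place, KO minus WT, was 2.45 percentage points, against 2.55 over all pairs within reach of a gene, and the median size of the difference was 8.59 points, against 7.38. A positive difference means later in the KO list, and 15 of the 22 pairs had one. The other 7 pairs (31.8%) stood earlier in the KO list, near the 37.9% of all pairs within reach of a gene. Paired intervals overlapped by a median of 179.5 bp at these genes, and by 175 bp over all pairs within reach of a gene. A pair was counted as moved at 25 points, a limit chosen after the values were seen. Of the 22 pairs 1 stood that much earlier in the KO list, against 3.70% of all pairs, and 1 that much later, against 6.64%. Both counts are near that background.

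The pair that stood much earlier in the KO list was the last shared peak of Cd247 (KO chr1:165816427-165816619, WT chr1:165816389-165816607), at 2.98% of the KO list and 49.6% of the WT list, a difference of -46.7 points. It was the earliest KO peak of all 10 genes, and 164 of 26976 pairs in the whole lists differed by as much in this direction. The intervals overlapped by 181 bp, so both lists called the same site. The pair that stood much later in the KO list was the outlying shared peak of Cd2, at 81.7% of the KO list and 43.2% of the WT list, a difference of 38.5 points that 361 pairs reached. Since its peaks overlap by only 23 bp, it was not shared when 50% of the shorter peak had to be covered. Just short of the limit was the peak at the lower end of Cd3e, with -24.5 points.

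**Figure D4:**
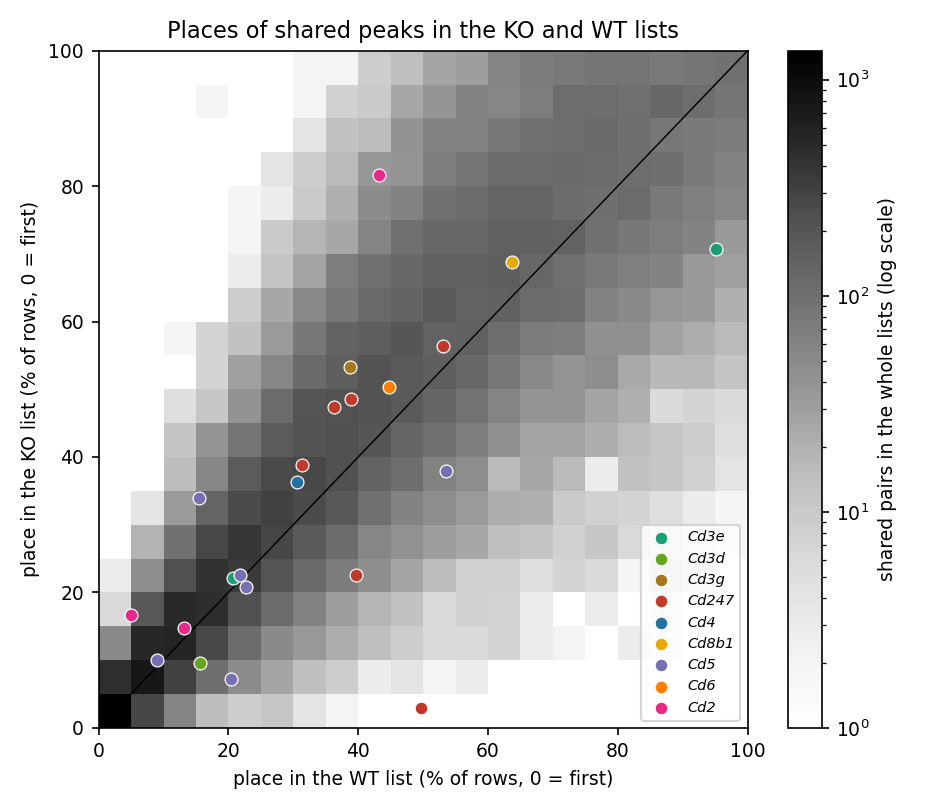
Place of each shared peak of the 10 genes in the KO list (y axis) against its place in the WT list (x axis), both in % of rows, over the number of shared pairs of the whole lists (grey, log scale). Most points lie near the line of equal place, 1 point of Cd247 lies at 2.98% of KO and 49.6% of WT, and 1 point of Cd2 at 81.7% of KO and 43.2% of WT.

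Genes that work with these receptors were counted in the same way. At the 15 partners in receptor signalling 26 peaks were KO-only, 31 WT-only and 67 shared, with more KO-only peaks at 5 genes and more WT-only peaks at 7. Txk, a Tec family kinase, had 5 KO-only peaks and 1 WT-only peak, and Skap1, an adaptor for adhesion, had 4 and 1. In the other direction stood Themis, needed for T cell selection, with 0 and 6. The costimulatory receptor gene Cd28 had 2 and 4, and the adaptor gene Lat had 1 and 3. The KO-only share of the peaks found in one list alone was 45.6% (32.4 to 59.3%), beside 45.4% over all such peaks.

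The 10 ligands, relatives and adaptors of CD2 and CD6 held 14 KO-only peaks, 13 WT-only peaks and 32 shared ones, with 3 genes in each direction. KO-only peaks made up 51.9% of those found in one list alone (31.9 to 71.3%). Alcam, which encodes the ligand of CD6, had 4 KO-only peaks and 1 WT-only peak, and Cd48, which encodes the ligand of CD2, had 0 and 2. At the 14 regulators known to act on Cd4 and Cd8 genes 43 peaks were KO-only, 41 WT-only and 94 shared, with more KO-only peaks at 4 genes and more WT-only peaks at 6. KO-only peaks made up 51.2% of those found in one list alone (40.0 to 62.3%), and the intervals of all 3 lists include the 45.4% over all such peaks. These 14 genes include Bcl11b, the gene floxed in the KO samples, with 5 KO-only, 5 WT-only and 6 shared peaks. Runx3, which silences Cd4 in CD8 lineage cells, had 6 KO-only peaks against 2 WT-only ones. Ikzf1, encoding Ikaros, had 4 and 0. Zbtb7b, encoding the CD4 lineage factor ThPOK, had 0 and 2, and Gata3, a factor of CD4 cells, had 1 and 3. The median difference, KO-only minus WT-only peaks per gene, was 0 in each of these lists, at the 10 receptor genes and over all 21896 protein-coding genes, of which 2957 had more KO-only and 3927 more WT-only peaks.

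The sorted cell type was checked with marker genes. All 5 Treg markers (Foxp3, Il2ra, Ctla4, Ikzf2 and Tnfrsf18) had peaks, 39 in the KO list and 36 in the WT list. The 4 B cell markers used had 5 KO and 2 WT peaks, and no peak was given to Cd79a or Ms4a1. Over 5 genes each, NK cell markers had 11 KO and 9 WT peaks with none at Ncr1, myeloid markers 7 KO and 5 WT peaks with none at Csf1r, and non-lymphoid markers 4 and 4 with none at Myh6 or Krt14. Peaks were thus found at 2 of 4 B cell, 4 of 5 NK cell, 4 of 5 myeloid and 3 of 5 non-lymphoid markers, and of all protein-coding genes 14669 of 21896 had a peak. By class, 11 peaks were KO-only and 8 WT-only at Treg markers, 3 and 0 at B cell markers, 4 and 2 at NK cell markers, 4 and 2 at myeloid markers, and 2 and 2 at non-lymphoid markers. Over all genotype-specific peaks within reach of a gene, 45.4% were KO-only, and the exact 95% interval of each marker list's KO-only share includes this value. The part of such cells in the peaks above was not tested.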

How the data were processed

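The data are the start and end of ATAC-seq peaks on build mm10, in 1 list for the 3 KO and 1 list for the 3 WT samples, per the labels. Each peak also has a score in the deposited lists, and that score is 1 throughout. Per the submitters' processing notes the tools were HOMER 4.10.1, HISAT2 2.1.0, deepTools, SAMtools 1.3, Trim Galore 0.4.2, FastQC and cutadapt 1.12. The sources used here give neither their roles nor the peak threshold, the joining of replicates or whether reads were shifted to the Tn5 cut, and they do not say whether the 3 samples of a group came from separate animals. Depth per sample is unknown. Peaks are 193 bp (KO) and 219 bp (WT) wide with few exceptions, so the lists are not symmetric.

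Peaks were overlapped (at least 1 bp) and assigned to protein-coding genes of RefSeq GRCm38.p6 (within 100 kb) in Python 3.11.15 (scipy 1.17.1, pandas 2.3.3, numpy 2.4.6, and matplotlib 3.10.9 for figures). A midpoint in several gene bodies counted for each. Overlap (800 simulated peaks) and assignment (400) were tested on simulated data against bedtools 2.31.1 with 0 differences. For overlap the total counts of overlapped peaks were compared, and for assignment the genes given to each peak. The 100 kb limit, the gap rule and the other assignment rules were not tested in this way. Row order and peak numbers correlated within each chromosome (Spearman 0.991 to 0.998, across peaks, a description).

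The 10 genes, the gene lists and the markers were chosen with earlier results of these data known. Beside all 10 genes, genes of the 3 partner lists were named where KO-only and WT-only counts differed by 2 or more. At most 3 were named each way per list, largest difference first and ties by name. Gpr162, Ube4a, Vps37c, Pou2f1, Gm32999 and A430093F15Rik were named after their positions were seen. Alternatives were other rules of overlap, assignment and list length, and leaving out each gene. A B cell marker is not reported here, and the counts of that list are without it.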

Additional observations from a re-analysis of the deposited data

How the results depend on the processing

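KO-only, WT-only and shared counts over the 10 genes, the KO-only share and the number of genes with a genotype-specific peak were recomputed under 8 other settings and with each gene left out, and 83 of 90 values stayed close to the reported ones (counts within 1.5 times, the share within its exact interval). Leaving out Cd3e, Cd3d, Cd3g, Cd4, Cd8a or Cd5 could change only the shared count, since these genes held no genotype-specific peak. The 83 thus include values that were fixed in advance. The exact interval of the share is wide (23.1 to 68.5%), so 30.0% and 54.5% both counted as close. The reported 9 KO-only peaks became 3 in the first 50% of each list, 5 without Cd247 and 5 without Cd6. The 11 WT-only peaks became 7 in the first 50% of each list, 7 with the nearest gene of any type and 6 without Cd247. Genes with a genotype-specific peak numbered 4, and 7 when every gene within 10 kb was counted. Fewer peaks or genes enter the first and the left-out settings by construction. The other changes come from the assignment rule, which moves peaks between genes. With the nearest gene of any type, WT-only peaks went from 3 to 0 at Cd2 and from 2 to 1 at Cd6. With every gene within 10 kb counted, Cd3g, Cd4 and Cd5 gained genotype-specific peaks otherwise given to Ube4a, Gpr162 and Vps37c. The direction turned at Cd6 in the first 50% of each list (difference -2) and at Cd2 within 10 kb, with every gene within 10 kb and with the nearest gene of any type (1 each). No paired analysis was possible because each group has 1 peak list and no value per sample. With no read counts, the peak lists cannot show how far a site called in one list lay below the threshold in the other.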
